A study of Mus musculus with 12 samples.

Results

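Aquaporins and urea transporters are the channels through which water, glycerol and urea cross cell membranes, and their transcripts were followed here over 1 circadian day in the mouse urinary bladder. The genes described are Aqp1, Aqp2, Aqp3, Aqp4, Aqp5, Aqp7, Aqp9, Slc14a1 and Slc14a2, chosen by name: every non-control probe that the array files assign to one of these 9 genes was taken. This gave 17 probes of 41174, and 9 gene names of 27670. Of the 9 genes, 4 had 1 probe, 2 had 2 probes and 3 had 3 probes.

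The series holds 12 Agilent 1-colour arrays of total RNA from whole bladder. All mice were wild-type C57BL/6 females of 10 weeks that were kept in constant darkness, after 2 weeks in a cycle of 12 h light and 12 h dark. Bladders were taken at circadian time (CT) 0, 4, 8, 12, 16 and 20 h, with 2 arrays at each time; CT0 to CT12 is the subjective day, when mice rest. The labels do not say that each array held a single mouse, nor for how long the animals had been in darkness, so the p-values measure the spread between arrays, which may be technical.

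As background, aquaporins sit in the membrane as tetramers, each subunit with its own pore. Some pass water alone, and others, the aquaglyceroporins, also pass glycerol and, in part, urea. Slc14a1 and Slc14a2 encode the facilitated urea transporters UT-B and UT-A. In the kidney, vasopressin sends aquaporin 2 to the cell surface and activates UT-A, which allows urine to be concentrated. In the bladder, aquaporin 3 and UT-B are known from the urothelium, the lining that separates stored urine from blood.

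Of the 9 genes, 6 lie in neighbouring pairs, with no other protein-coding gene between them in the RefSeq gene table: Aqp2 next to Aqp5 on chromosome 15, Aqp3 next to Aqp7 on chromosome 4, and Slc14a1 next to Slc14a2. The promoters of Aqp4, Slc14a1 and Slc14a2 were left out of the search because of their chromosome. For the other 6 of the 9 genes, RefSeq (GRCm38.p6) gave 8 promoters, 250 bases before to 50 after a start site. They were searched on both strands for the E-box CACGTG, which the clock proteins CLOCK and BMAL1 bind, for the D-box TTANGTAA and for AGGTCA, the core of the site that ROR and REV-ERB receptors bind. Aqp2 and Aqp5 were the 2 of these 6 genes with an E-box. Their windows of 30 bases are shown here because both genes are described below and Aqp5 had the smallest p-value of the group. Capitals mark the E-box, whose first base lies 58 bases before the start site in Aqp2 (chr15:99578986-99579015, plus strand) and 87 before it in Aqp5 (chr15:99590929-99590958, plus strand).

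Aqp2: cctcctccacccCACGTGcccaggtctacg

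Aqp5: tgccgcgtgggtCACGTGgcccgggcgggt

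An E-box of these letters stood in 7.15% of 32851 RefSeq promoters of the same length. This count also leaves out chromosome 18, on which Aqp4, Slc14a1 and Slc14a2 lie. The D-box was in none of the 8 promoters and in 2.32% of the 32851. AGGTCA was found in the promoters of Aqp7 alone among the 6 genes, where no E-box stood to overlap it, and in 16.3% of the 32851. A match of letters is a description of the promoter and says nothing of binding in the bladder.

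Of the 17 probes, 11 were well above background on all 12 arrays, 4 on none, and the other 2 on 9 arrays and on 1 array. Levels below are log2 processed signal minus the array's 75th percentile, so 0 equals that percentile (793 to 917 intensity units). They show how 1 probe varied between arrays and cannot rank one gene above another. The probe with the highest mean stood for its gene, and all 9 genes passed the filter of 4 arrays well above background. Below that filter were 5 probes, 2 for Aqp4, 2 for Aqp9 and 1 for Slc14a2, which have no test.

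**Figure D1:**
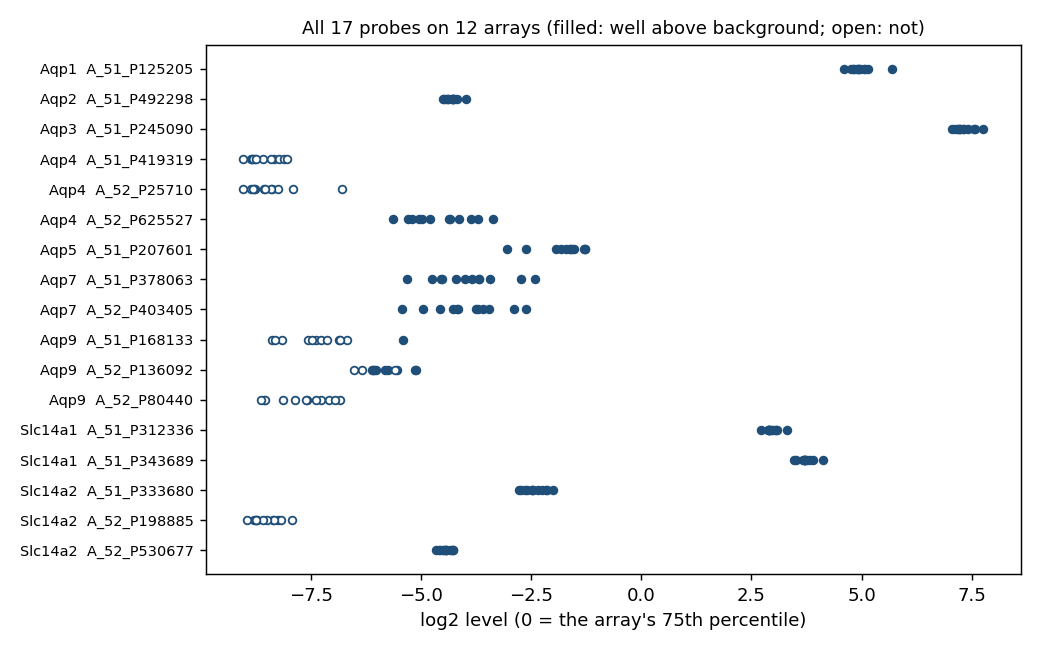
Log2 level of all 17 probes (rows, by gene and probe name) on each of the 12 arrays, with 0 at the array's 75th percentile; filled points are well above background and open points are not. The rows of 11 probes are filled throughout and those of 4 are open throughout, while the horizontal position of different probes cannot be compared.

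Whole bladder RNA carried the markers of its own tissue layers: all 10 urothelial markers (uroplakins, keratins and others) and all 6 smooth muscle markers were well above background on every array. Mean levels of the 8 hepatocyte markers ranged from -3.92 (CT20 replicate 1) to 1.70 (CT20 replicate 2) between arrays, and those of the 8 adipocyte markers from 1.14 (CT0 replicate 2) to 4.75 (CT4 replicate 1). Fits of single genes without the 3 arrays highest in hepatocyte markers are therefore given where a value rests on them. For fits without the 2 adipocyte extremes, counts over all genes are given in the last section. In such bulk RNA, fewer cells of a type and less RNA per cell cannot be told apart. CT0 and CT4 shared slide 1, CT8 and CT12 slide 2, and CT16 and CT20 slide 3, so a difference between times on different slides cannot be told apart from one between slides.

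No water channel or urea transporter passed the test for a 24 h wave or for any difference between times. In limma with Benjamini-Hochberg adjustment over 18394 genes, 0 of 9 had a wave (background 0.620% of all genes tested, 114 genes), and 0 of 9 differed between times (background 0.0924%, 17 genes). At an unadjusted p under 0.05, 1 of 9 had a wave (Aqp5; background 15.7%) and 3 of 9 differed between times (Aqp3, Aqp4 and Aqp5; background 19.0%). The counts of 0 among the 9 genes were the same in all 14 other settings (13 for Aqp9) and in the 12 fits with 1 array fewer. The median fitted peak-over-trough fold of the 9 genes was 1.29, against 1.19 over all genes tested, and 3 of the 9 had a fold of at least 1.5 (background 14.6%). These were Aqp4, Aqp5 and Aqp7. A fitted fold rises with the spread between arrays, and the within-time SD of these genes stood at percentiles 90.5, 65.3 and 97.1 of all genes tested. The median of 1.29 includes Aqp9, whose CT0 arrays were not well above background.

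**Figure D2:**
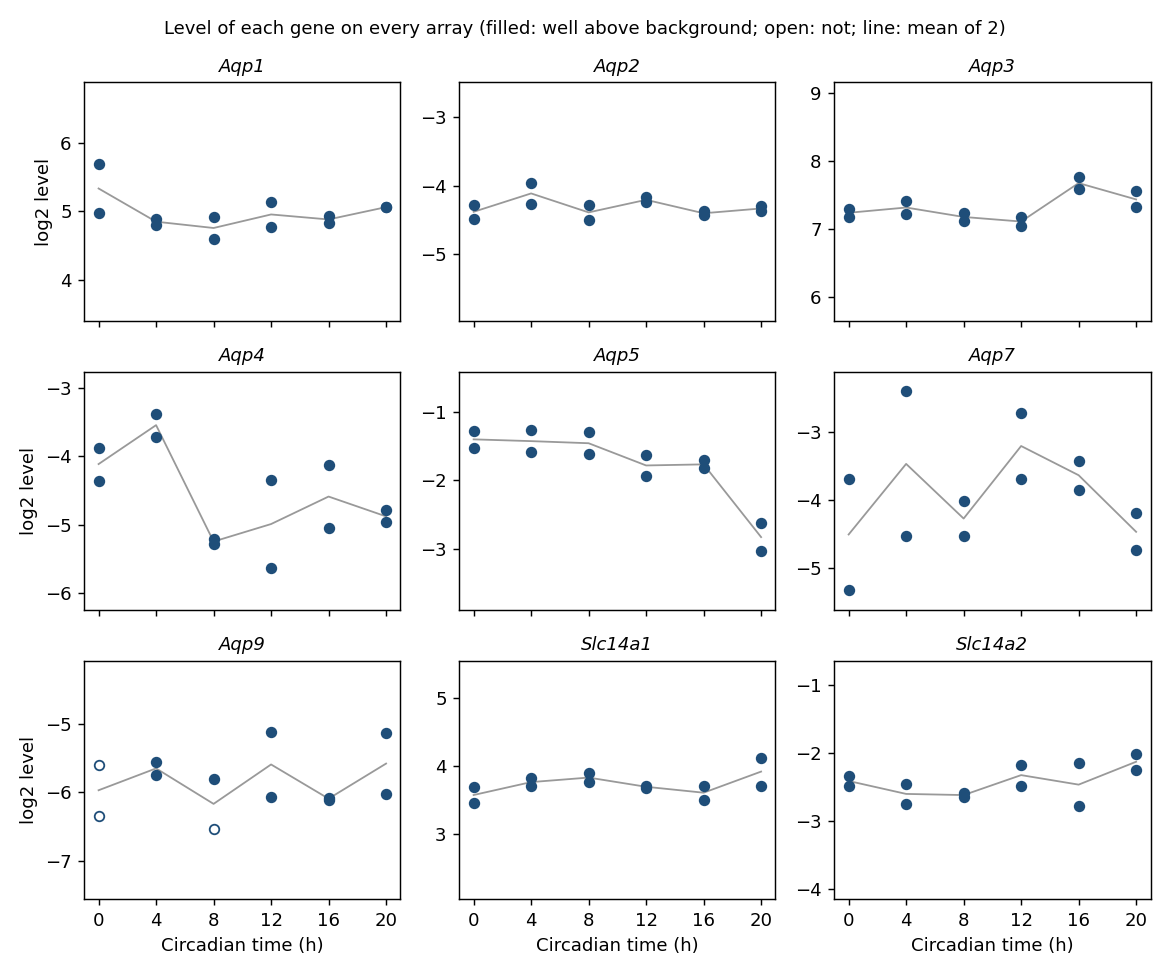
Log2 level of the representing probe of each gene (vertical axes, all spanning the same range) against circadian time in hours; points are single arrays, filled where well above background, and lines join the means of 2. Both CT20 arrays of Aqp5 lie below its other 10 and both CT16 arrays of Aqp3 above its other 10, while the 2 arrays of Aqp7 at CT4 lie 2.12 apart.

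**Figure D3:**
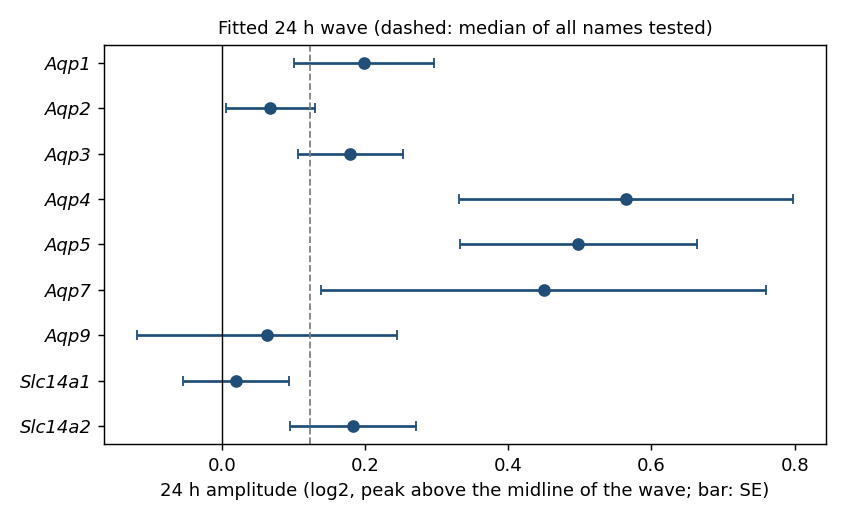
Fitted 24 h amplitude (log2, peak above the midline of the wave) of each gene, with bars of 1 SE from 12 arrays; the dashed line is the median of all genes tested. Aqp4, Aqp5 and Aqp7 stand highest in the plot, at 0.56, 0.50 and 0.45, with SE of 0.23, 0.17 and 0.31, and their order differs with normexp background correction and with slide as a fixed block.

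Aqp3 encodes an aquaglyceroporin that passes water and glycerol and is found in the urothelium. Its probe (chr4:41231392-41231451, minus strand, mm7) read 7.18 and 7.30 at CT0, 7.23 and 7.40 at CT4, 7.12 and 7.24 at CT8, and 7.04 and 7.18 at CT12. At CT16 it read 7.58 and 7.77, and at CT20 7.32 and 7.55. Both CT16 arrays thus lay above the other 10, a pattern that 7.22% of all genes had for CT16.

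The order of the Aqp3 time means was CT16, CT20, CT4, CT0, CT8 and CT12. The CT16 mean of 7.67 ± 0.13 (SD, n = 2) stood 0.24 above that of CT20 without overlap, and every later neighbour in the order overlapped the one before. Aqp3 at CT16 minus CT4 was 0.36 ± 0.12 (SE, log2), 1.28-fold, with an adjusted p of 0.155 in limma. The 24 h fit placed the peak at CT18.6 ± 1.6 h with a 1.28-fold wave (1.16 to 1.42 for 1 SE, adjusted p = 0.389). The 1-way test in limma gave Aqp3 an adjusted p of 0.201. CT16 and CT20 were the times on slide 3. The Aqp3 amplitude of 0.18 became 0.12 with quantile normalisation (adjusted p = 0.581). With slide as a fixed block, the Aqp3 peak moved to CT10.2 and the within-slide test gave an adjusted p of 0.556.

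Slc14a1 encodes UT-B, the urea transporter of red blood cells, vessels and urothelium. Its representing probe read 3.68 and 3.46 at CT0, 3.70 and 3.83 at CT4, 3.76 and 3.89 at CT8, and 3.68 and 3.71 at CT12. The CT16 arrays gave 3.50 and 3.71, and those of CT20 3.71 and 4.12. The arrays of all neighbouring times in its order (CT20, CT8, CT4, CT12, CT16, CT0) overlapped.

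The fitted wave of Slc14a1 was 1.03-fold (0.927 to 1.14 for 1 SE, adjusted p = 0.984). Its amplitude of 0.02 ran from 0.01 to 0.11 without 1 array at a time, with the highest value without CT20 replicate 2. A second Slc14a1 probe, 1480 bases away on chromosome 18, ran from 2.72 to 3.32 and followed the first over the 12 arrays (r = 0.83, rho = 0.65). The second probe fitted a 1.11-fold wave with a peak at CT19.0. Both probes were highest on CT20 replicate 2 and lowest on CT0 replicate 2. With slide as a fixed block the fold of Slc14a1 was 1.45 (adjusted p = 0.552).

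Slc14a2 encodes UT-A, the vasopressin-regulated urea transporter of the kidney. The 2 probes for its transcript variant 2 were well above background on all 12 arrays, and the probe for variant 1 was well above background on none. The variant 2 probe that stood for the gene read -2.34 and -2.48 at CT0, -2.46 and -2.74 at CT4, -2.65 and -2.58 at CT8, and -2.17 and -2.48 at CT12. At CT16 its arrays read -2.14 and -2.78, and at CT20 -2.24 and -2.01.

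CT20 had the highest Slc14a2 mean and CT8 the lowest, and all neighbours in the order of means overlapped. The fitted wave of Slc14a2 was 1.29-fold with a peak at CT18.6 (adjusted p = 0.469). The second variant 2 probe, whose match spans 3502 bases of chromosome 18, gave 1.06-fold, and the 2 probes were nearly uncorrelated (r = 0.05, rho = 0.05, 12 arrays). The 1.29-fold wave thus rests on 1 of the 3 probes of Slc14a2. The amplitude of 0.18 became 0.11 for the mean of the 2 variant 2 probes, 0.34 in the fit with a fixed slide block and 0.28 once CT16 replicate 2 was left out (adjusted p = 0.490, 0.590 and 0.155).

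Aqp1 encodes the water channel of endothelium and red blood cells. Its probe (chr6:55311856-55311915, plus strand, mm7) read 4.97 and 5.70 at CT0, 4.89 and 4.80 at CT4, 4.92 and 4.59 at CT8, and 5.14 and 4.77 at CT12. Later it read 4.83 and 4.93 at CT16 and 5.07 and 5.06 at CT20. CT0 replicate 2 was the highest array of Aqp1 and the other CT0 array lay among the rest.

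The arrays of all neighbouring times of Aqp1 overlapped in the order CT0, CT20, CT12, CT16, CT4 and CT8. Its fitted wave was 1.32-fold with a peak at CT22.0 ± 1.9 h (adjusted p = 0.480). Without CT0 replicate 2 the Aqp1 amplitude went from 0.20 to 0.11 on the log2 scale (adjusted p = 0.530), and without the 3 arrays highest in hepatocyte markers, of which it is 1, to 0.09 (adjusted p = 0.715). With slide as a fixed block it was 0.45 ± 0.18 (SE, adjusted p = 0.442), against 0.20 ± 0.10 in the main fit.

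The spread of Aqp1 between arrays went with that of smooth muscle genes. Its level and the mean level of 6 smooth muscle markers (Acta2, Myh11, Des, Cnn1, Tagln, Smtn; range 6.85 to 7.46) correlated over 12 arrays at r = 0.964 (permutation p = 1e-05, the smallest that 100000 resamples can give; adjusted p = 0.0009 over 90 relations) and rho = 0.888 (permutation p = 0.00028, adjusted p = 0.0126). Without the 2 arrays farthest from the median of the markers (CT0 replicate 2 and CT8 replicate 2), r was 0.856, and with each slide's mean removed it was 0.961. Smtn, the contractile-cell gene smoothelin, was itself at 3.93 on CT0 replicate 2 against 2.26 to 3.10 on the others. Leaving Smtn out of the list gave r = 0.831, and leaving out both Smtn and that array gave 0.751. With the 8 endothelial markers the correlation of Aqp1 was -0.15 (permutation p = 0.658, adjusted p = 0.911; rho = -0.04, permutation p = 0.903, adjusted p = 1.0). Mean levels of the endothelial markers ranged from 0.17 to 0.54, and all 8 were well above background on every array. With the 3 red blood cell markers tested, the correlation of Aqp1 was 0.05 (permutation p = 0.872, adjusted p = 0.957; rho = -0.22, permutation p = 0.499, adjusted p = 0.841). Among 13632 named genes well above background on all arrays, those most like Aqp1 over the 12 arrays were Actn1, an actin crosslinker (r = 0.945), Tgfb3, a growth factor (0.943), and Dynll1, a dynein light chain (0.942).

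Aqp7 encodes the aquaglyceroporin through which fat cells release glycerol. Its representing probe (chr4:41172651-41172710, minus strand, mm7) read -3.69 and -5.32 at CT0, -2.41 and -4.53 at CT4, -4.54 and -4.01 at CT8, and -3.69 and -2.73 at CT12. Its CT16 arrays gave -3.42 and -3.85, and those of CT20 -4.74 and -4.19. On this probe the 2 arrays of CT4 differed by 2.12 and those of CT0 by 1.63 on the log2 scale. Both exceeded the 1.30 between its highest and lowest time means.

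The within-time SD of Aqp7 was 0.858, against a median of 0.155 over all genes tested, and larger than in 97.1% of them. A second probe, which shares 38 bases of its site with the first, read lowest and highest on the same arrays (CT0 replicate 2 and CT4 replicate 1; r = 0.89, rho = 0.83). Its CT4 arrays lay only 0.84 apart and its CT0 arrays 1.73, while its time means ran from -4.76 (CT20) to -3.04 (CT4). The second probe fitted a 2.12-fold wave with a peak at CT8.8 (adjusted p = 0.510 in limma over all probes). The fitted wave of the representing Aqp7 probe was 1.86-fold (1.21 to 2.87 for 1 SE) with a peak at CT11.1 ± 2.6 h (adjusted p = 0.656). Its amplitude was 0.45 with all arrays and 1.25 with slide as a fixed block (adjusted p = 0.545). Without the 3 arrays highest in hepatocyte markers it was 0.07. Of these arrays, CT0 replicate 2 was also the lowest in adipocyte markers (mean level 1.14), and CT12 replicate 2 read 4.68 in them. With normexp background correction the amplitude was 0.21 (adjusted p = 0.700). It was 0.25 without CT0 replicate 2 (adjusted p = 0.864) and 0.29 without CT12 replicate 2 (adjusted p = 0.857).

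Aqp7 moved with the fat cell genes of the same arrays, as the plot against marker levels shows. Its level and the mean of 8 adipocyte markers (Adipoq, Plin1, Cidec, Lep, Fabp4, Retn, Cfd, Lpl) correlated over 12 arrays at r = 0.946 (permutation p = 5e-05, adjusted p = 0.00225 over 90 relations) and rho = 0.930 (permutation p = 9e-05, adjusted p = 0.0081). Without CT0 replicate 2 and CT4 replicate 1, the arrays farthest from the median, r was 0.929, and with slide means removed 0.948. All 8 markers were positively correlated with Aqp7 (r = 0.713 for the fatty acid carrier Fabp4 to 0.948 for the lipid droplet gene Cidec). Adipoq, the adipocyte hormone adiponectin, read 1.38 on CT0 replicate 2 and 5.72 on CT4 replicate 1.

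The SD of Aqp7 over the 12 arrays was 0.827, and that of its difference from the adipocyte mean was 0.337. The named genes most like Aqp7 were Sucnr1, a succinate receptor (r = 0.975), Cd36, a fatty acid transporter (0.969), and Ces1f, a carboxylesterase (0.962). Aqp1 with smooth muscle and Aqp7 with adipocyte markers were the 2 of 90 relations between the 9 genes and 10 marker lists that passed the adjustment by r, and by rho as well. The part of the marker levels in the change of either gene over time was not tested.

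**Figure D4:**
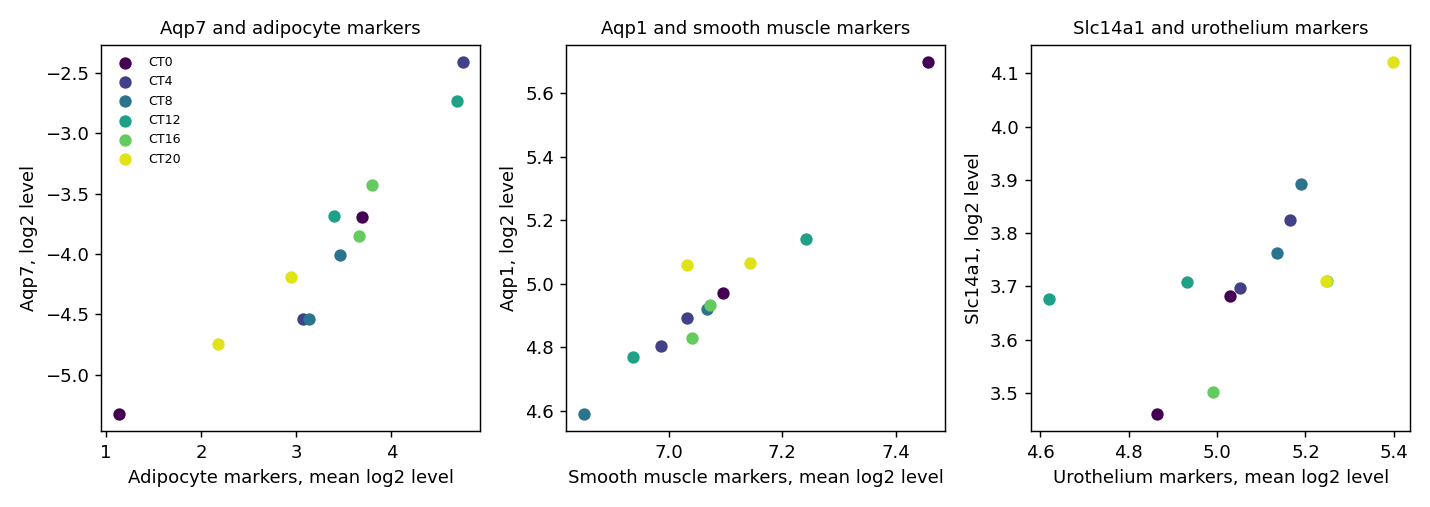
Log2 level of Aqp7, Aqp1 and Slc14a1 (vertical) against the mean log2 level of adipocyte, smooth muscle and urothelial markers (horizontal) on the 12 arrays, coloured by circadian time. Aqp7 and Aqp1 follow their markers at r = 0.946 and r = 0.964, with arrays of 1 time far apart, and Slc14a1 follows urothelial markers at r = 0.654, which did not pass the adjustment.

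For the 2 genes known from the urothelium the correlations with its markers missed the adjusted threshold. Slc14a1 and the mean of the 10 urothelial markers (4.62 to 5.40 between arrays) correlated at r = 0.654 (permutation p = 0.0248, adjusted p = 0.296) and rho = 0.818 (permutation p = 0.00181, adjusted p = 0.0543). Without the 2 arrays farthest from the median (CT12 replicate 1 and CT20 replicate 2) the Slc14a1 correlation was 0.691, and with slide means removed 0.755. With red blood cell and endothelial markers Slc14a1 correlated at r = 0.37 and 0.31 (permutation p = 0.236 and 0.335, adjusted p = 0.75 and 0.836). Aqp3 and the urothelial markers correlated at r = 0.568 (permutation p = 0.0551, adjusted p = 0.382) and rho = 0.580 (permutation p = 0.0515, adjusted p = 0.392). After slide means were removed, this r was 0.250. With glial markers Aqp3 had r = -0.63 (permutation p = 0.0289, adjusted p = 0.296), and -0.24 after slide means were removed. By r, the relations nearest to the threshold among those that missed it involved other lists. They were Slc14a2 with endothelial markers (r = 0.74, permutation p = 0.00644), Aqp2 with glial markers (0.71, 0.00736) and Aqp1 with adipocyte markers (-0.74, 0.011). The genes most like Aqp3 were Slc52a3, a riboflavin transporter (r = 0.969), Slc7a6os (0.946) and Entpd5, a nucleotidase (0.946). Those most like Slc14a1 were Trabd (0.862), Parl, a mitochondrial protease (0.859), and Prkab1, a subunit of AMP-activated kinase (0.858).

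Aqp5 encodes the water channel of secretory glands and lung epithelium. Its single probe (chr15:99579945-99580003, plus strand, mm7) read -1.52 and -1.27 at CT0, -1.58 and -1.27 at CT4, -1.30 and -1.61 at CT8, and -1.94 and -1.62 at CT12. At CT16 the probe read -1.82 and -1.71, and at CT20 -3.04 and -2.62. Both CT20 arrays of Aqp5 lay below the other 10, which ran from -1.94 to -1.27; 2.15% of all genes had both CT20 arrays lowest.

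The order of the Aqp5 time means was CT0, CT4, CT8, CT16, CT12 and CT20. The CT20 mean of -2.83 ± 0.29 (SD, n = 2) stood 1.05 under that of CT12, and CT8 and CT16, 0.31 apart, were the other neighbours without overlap. The signal itself was low but clear of background, 102 to 366 intensity units, where the dimmest spot well above background on an array read 7.04 to 12.3 units.

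In limma 0 of 9 genes passed in each of the 6 contrasts between times. The background shares of genes passing were 0.196% for CT12 minus CT0, 0.397% for CT16 minus CT4, 0.0598% for CT20 minus CT8, 0.00% for CT4 minus CT0, 0.00% for CT12 minus CT8 and 0.00544% for CT20 minus CT16. At an unadjusted p under 0.05 there were 2 of 9 in CT16 minus CT4 (Aqp3 and Aqp4; background 20.9%), and Aqp5 alone in CT20 minus CT8 (12.2%) and in CT20 minus CT16 (14.1%). The other contrasts had 0 of 9, against 10.7% for CT12 minus CT0, 9.27% for CT4 minus CT0 and 12.9% for CT12 minus CT8. Aqp5 at CT20 minus CT8 was -1.38 ± 0.20 (SE, log2), 0.385-fold, with an adjusted p of 0.0969. At CT20 minus CT16, a comparison within slide 3, it was -1.07 ± 0.20 (0.478-fold, adjusted p = 0.153). In the other settings the difference of Aqp5 between CT20 and CT8 ran from -1.58 to -0.99 and its adjusted p from 0.0591 to 0.253. Without 1 array at a time, it ran from -1.58 to -1.17 and the adjusted p from 0.0883 to 0.377.

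The 1-way test in limma gave Aqp5 an adjusted p of 0.108, and the test of differences within slides one of 0.228. Without the 3 arrays highest in hepatocyte markers, 1 of them a CT20 array, the adjusted p of Aqp5 in the 1-way test was 0.287. The 24 h fit of Aqp5 gave a 1.99-fold wave (1.59 to 2.51 for 1 SE) with a peak at CT6.3 ± 1.3 h (adjusted p = 0.288). With slide as a fixed block the fold was 2.36 and the peak CT10.9 (adjusted p = 0.488).

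Most like Aqp5 over the 12 arrays were Cdon, a cell surface receptor (r = 0.889), Myo3b, a myosin (0.884), and Mpp5, a polarity scaffold (0.870). Its correlation with each of the 10 marker lists missed the adjusted threshold. Aqp6, the gene that follows Aqp5 on chromosome 15, was well above background on none of the 12 arrays.

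Aqp2, its neighbour on the other side and the vasopressin-regulated channel of the kidney collecting duct, was faint. Its probe, whose match spans 977 bases (chr15:99567392-99568368, plus strand, mm7), read 35.0 to 55.9 intensity units. In log2 levels Aqp2 ran from -4.50 (CT8 replicate 1) to -3.97 (CT4 replicate 1), and the 2 arrays of CT4 lay 0.30 apart. The fitted wave was 1.10-fold (1.01 to 1.20 for 1 SE, adjusted p = 0.777), and its amplitude of 0.07 ran from 0.02 to 0.12 in the other settings. CT12 and CT20 were the neighbours in its order of means (CT4, CT12, CT20, CT0, CT8, CT16) that did not overlap, 0.13 apart.

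The adjacent genes Aqp2 and Aqp5, whose promoters hold the E-boxes shown above, had a correlation of -0.07 over the 12 arrays (rho = -0.06, a description). Of 6 marker genes of kidney tubules, 2 were well above background on at least 4 arrays.

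Aqp4 encodes the water channel of glia and muscle fibres, and only 1 of its 3 probes was well above background. The 3 probes lie within 696 bases of chromosome 18. The one well above background on all 12 arrays read -3.87 and -4.35 at CT0, -3.71 and -3.37 at CT4, -5.29 and -5.21 at CT8, and -4.35 and -5.64 at CT12. CT16 gave -4.13 and -5.04, and CT20 -4.97 and -4.79. The other 2 probes, for the same transcript and on either side of it, were well above background on no array. The values of Aqp4 below thus rest on 1 of 3 probes, and whether its signal comes from Aqp4 was not tested.

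Both CT4 arrays of Aqp4 lay above the other 10 (1.42% of all genes had this), and the remaining neighbours in its order of means (CT4, CT0, CT16, CT20, CT12, CT8) overlapped. The difference CT16 minus CT4 was -1.05 ± 0.44 (SE, log2; adjusted p = 0.224). The fitted wave of Aqp4 was 2.19-fold (1.58 to 3.02 for 1 SE) with a peak at CT1.4 ± 1.6 h (adjusted p = 0.396). The 1-way test in limma gave an adjusted p of 0.240. The amplitude of 0.56 became 0.22 with normexp background correction and 0.20 in the authors' value table (adjusted p = 0.369 and 0.386), where that of Aqp5 was 0.37 and 0.35. With slide as a fixed block the Aqp4 peak moved to CT10.6 (adjusted p = 0.708). Its correlation with the 6 glial markers was 0.33 (permutation p = 0.291, adjusted p = 0.795; rho = 0.33, permutation p = 0.295, adjusted p = 0.841).

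Aqp9 encodes an aquaglyceroporin of liver and white blood cells that also passes urea. Its 3 probes were well above background on 9, 1 and 0 arrays. The first (chr9:71145729-71145788, minus strand, mm7) read 8.59 to 25.2 intensity units, close to the dimmest spots accepted, and -6.53 to -5.11 in log2 levels. Both CT0 arrays and 1 CT8 array were the 3 not well above background, so that the group at CT0 has only a bound and the wave has no measured fold. With the CT0 signals entered as measured, the 24 h test gave Aqp9 an adjusted p of 0.972. The amplitude of 0.06 ran from 0.02 with normexp to 0.15 with slide as a fixed block, and was 0.22 without CT12 replicate 2. These amplitudes also rest on the CT0 signals of Aqp9 and are a description alone. Its correlation with the 8 hepatocyte markers was 0.625 (permutation p = 0.0302, adjusted p = 0.296; rho = 0.476, permutation p = 0.12, adjusted p = 0.602), and 0.137 without the 2 arrays farthest from their median. With the 3 red blood cell markers tested it was 0.680 (permutation p = 0.0154, adjusted p = 0.231; rho = 0.678, permutation p = 0.0188, adjusted p = 0.265), 0.611 without the 2 farthest arrays and 0.760 with slide means removed. With the 7 neutrophil and monocyte markers tested it was -0.03 (permutation p = 0.92, adjusted p = 0.986; rho = -0.02, permutation p = 0.956, adjusted p = 1.0). All 3 relations of Aqp9 missed the adjusted threshold.

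Other genes of the pathways around these channels did not pass either test. Over all genes tested, 0.620% passed the 24 h test and 0.0924% the 1-way test, and 15.7% had an unadjusted p under 0.05 in the 24 h test. Of 5 other aquaporins, 2 were tested and 0 passed. Aqp11, an intracellular aquaporin, had a 1.30-fold wave (adjusted p = 0.358), and Aqp8, a channel for water and ammonia, 1.40-fold (adjusted p = 0.972). Mip, Aqp6 and Aqp12 were well above background on 0, 0 and 1 arrays.

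Of 15 genes of vasopressin signalling and aquaporin trafficking, 12 were tested and 0 passed in limma, with 4 of 12 at an unadjusted p under 0.05 in the 24 h test (background 15.7%) and a median fold of 1.16. Their smallest p-values were those of Nedd4, a ubiquitin ligase, with a 1.56-fold wave at CT6.0 (adjusted p = 0.0827), and Akap7, a kinase anchor, with 1.26-fold at CT9.1 (adjusted p = 0.192). Avp, the hormone's own gene, and its receptor gene Avpr1b were well above background on no array. Avpr2, the receptor that acts on aquaporin 2 in the kidney, was so on 2 arrays. Avpr1a, the receptor of smooth muscle, was so on all 12.

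All 12 genes of the osmotic response were tested and 0 passed, with 3 of 12 at an unadjusted p under 0.05 in the 24 h test (background 15.7%) and a median fold of 1.25. Oxsr1, a kinase that answers to cell volume, had a 1.36-fold wave at CT18.0 (adjusted p = 0.168), and Hspa4l, a chaperone induced by osmotic stress, 1.36-fold at CT19.0 (adjusted p = 0.216). All 13 genes of glycerol and urea metabolism were tested and 0 passed, with 0 of 13 at an unadjusted p under 0.05 in the 24 h test (background 15.7%) and a median fold of 1.41. Gpd1, which makes glycerol phosphate, had a 3.43-fold fitted wave (adjusted p = 0.433), and Lipe, hormone-sensitive lipase, 1.97-fold (adjusted p = 0.467). The medians of these lists stand beside 1.19 for all genes.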

How the data were processed

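Intensity per spot was deposited in scanner files from Agilent Feature Extraction 10.5.1.1, per the file headers, with 1 file per array and no normalisation between arrays; the yes-or-no marks for background and outliers come from the same deposited files. The authors' value table holds log2 values for 27883 probes, including 12 of the 17 described; how it was normalised is not given in the sources used here, and the submitters' processing notes name R 2.8.1. It served as an alternative only.

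Log2 processed signals were averaged per probe and scaled by the array's 75th percentile. Names came from RefSeq accessions, symbols or synonyms (table of GRCm38.p6, for names alone); coordinates of probes were copied from the files (mm7), without exon or UTR annotation here. Genes well above background on at least 4 of 12 arrays (18394) were tested in limma 3.58.1 under R 4.3.3: cosine and sine terms of 24 h with a moderated F-test, and a 1-way fit over 6 times with 6 contrasts, adjusted by Benjamini-Hochberg with a threshold of 0.05. Amplitudes and peak times carry delta-method SE, and fold is fitted peak over trough. The fits were tested on simulated data with independent normal noise and no slide effect. That run cannot show how the fits behave where times and slides go together. Relations to marker lists are Pearson and Spearman correlations with two-sided permutation tests (100000 resamples, Python 3.11.15, scipy 1.17.1), added after the arrays' marker levels had been seen.

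The 9 genes, the pathway and marker lists and the tests were chosen with earlier results of these data known. The rule named all 9 genes, the 3 genes most like each gene measured on all arrays, and the 2 smallest p-values of each pathway list; the genes most like Aqp2, Aqp4 and Slc14a2 are not printed. Replicate number as a block was an alternative. On each array 64.2% to 70.2% of spots were well above background and 0 were saturated; precision is limited by the number of arrays.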

Additional observations from a re-analysis of the deposited data

How the results depend on the processing

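For the 9 genes, the counts of 0 past the threshold in the 24 h test, the 1-way test and the 6 contrasts held in every setting run for each, and no direction of an Aqp5 contrast reversed. The counts over all genes moved more. The 114 of 18394 genes with a 24 h wave became 62 with median scaling and 50 of 27544 with no filter on dim probes. With every probe as a feature, 222 of 27699 probes had a wave, a count of probes and not of genes. The gene count was 2 with slide as a fixed block, 28 with slide as a random block, and 42 to 104 without 1 array at a time. It was 42 to 69 without either array of CT4, CT8, CT16 or CT20 or without CT12 replicate 2. Alternatives chosen after seeing the data gave 18 without the 3 arrays highest in hepatocyte markers and 45 without the 2 adipocyte extremes. The 17 genes with any difference became 48 with normexp, 47 in the authors' table, 36 with genes above background on all arrays, 7 with slide as a random block, 47 with limma-trend, and 7 to 137 without 1 array at a time (137 without CT0 replicate 1, and 7 to 10 without either CT4 or CT20 array or replicate 2 of CT8, CT12 or CT16). They became 0 in limma with slide as a fixed block (2820 at an unadjusted p under 0.05), 0 without the hepatocyte-high arrays (2415 unadjusted) and 6 without the adipocyte extremes. The cause was not tested. With replicate number as a block, 92 genes had a wave and 23 any difference, and no call among the 9 genes changed. Aqp3 read lower in replicate 1 than in replicate 2 at all 6 times (-0.24 to -0.11, log2), and with this block its adjusted p in the 1-way test of limma was 0.109, against 0.201. Correlations of same-numbered deviations over all genes exceeded 0.1 in 10 of 15 pairs of times (-0.201 to 0.443), and the labels do not say that a number is shared, so the block is given as an alternative alone. With normexp, the amplitudes of the dim probes of Aqp4 and Aqp7 were 0.22 and 0.21, against 0.56 and 0.45. In all, 10 time means of 6 genes moved by more than their SD of 2 arrays under normexp or quantile scaling.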
